A study of Mus musculus with 6 samples.

Results

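The transcripts described here encode 54 proteins that make up the degradative core of the lysosome: 7 lysosomal membrane proteins, 31 luminal hydrolases and hydrolase cofactors, and 16 subunits and accessory proteins of the vacuolar proton pump (V-ATPase). They were taken by name, and all 54 were found among the 56305 Ensembl genes of the RNA-Seq table by their GRCm38 gene symbols. RNA was sequenced from the livers of 3 WT and 3 Vps15LKO mice, 1 library per liver. All were males of 5 weeks, fed ad libitum and taken at zeitgeber time 6 (ZT6), that is, in the light phase. The Vps15LKO mice were AlbCre+;Vps15 f/f, with the Vps15 gene deleted by a Cre recombinase under the albumin promoter, which is active in hepatocytes and their precursors and not in the macrophages, stellate cells and endothelial cells of the liver. The WT controls of this cross were not described by allele in the sources used here. Vps15 is the regulatory subunit of class 3 PI3K, the lipid kinase complex that makes phosphatidylinositol 3-phosphate on endosomes and autophagosomes.

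The lysosome is the acidic compartment in which cargo from autophagy and endocytosis is taken apart. The V-ATPase pumps protons into its lumen through a membrane sector (V0) driven by a cytosolic sector that hydrolyses ATP (V1), and the acid pH allows proteases, glycosidases and lipases to work. The heavily glycosylated membrane proteins Lamp1 and Lamp2 line the membrane, and channels and transporters such as Mcoln1 and Npc1 move ions and lipids out of the lumen. In liver, hepatocytes and the resident macrophages (Kupffer cells) are both rich in lysosomes. Many of these genes are known targets of the transcription factor TFEB and its relatives, which bind a short palindrome in their promoters called the CLEAR element.

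The deposited values were normalized counts, reads per gene divided by 1 DESeq2 size factor per library. The libraries held between 16137093 and 18110223 reads on genes, but WT size factors were 0.742 to 0.801 and Vps15LKO size factors 1.23 to 1.41. A transcript that takes the same share of the reads in both genotypes is therefore reported lower in Vps15LKO. Dividing by total reads instead (total-read scaling) moved the median over the 15430 tested genes up by 0.72 on the log2 scale, from −0.02 to 0.70, and values on that scale are given wherever they turn the direction of a named gene or list. The test was limma on log2(normalized count + 1), over genes that reached 20 normalized counts in 3 or more livers. A call needed a Benjamini-Hochberg adjusted p under 0.05 together with a fold of 1.2 or more. SE is the standard error of a log2 fold change. Fold changes are Vps15LKO over WT. Pik3r4, the gene of Vps15, went from 508, 573 and 460 normalized counts to 341, 362 and 355, or −0.54 on the log2 scale (SE 0.11, adjusted p = 0.0021), but was at 0.19 with total-read scaling. The deleted exons were not counted apart from the others.

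Cell type markers moved with the genotype in the same livers, where 33.5% of all tested genes were called higher and 33.0% lower. Of 20 macrophage markers, 18 were called higher and 0 lower, and their summed normalized counts ran from 12380.4 to 14571 across WT livers and from 46820.2 to 51291 across Vps15LKO livers, a ratio of 3.60. All 14 stellate cell and fibroblast markers were higher (8404 to 8869 against 35007 to 41189, ratio 4.36), as were the 9 tested cholangiocyte markers (1329 to 1498 against 12765 to 24351, ratio 12.5). Of 8 tested lymphocyte markers 6 were higher (127 to 163 against 301 to 360.4, ratio 2.23), but with quantile normalization 2 were higher and 2 lower. The lymphocyte sums cover all 10 listed markers and are low. A marker under 20 in every WT liver could pass the filter only through Vps15LKO livers and then had to be higher. Of 12 endothelial markers 3 were higher and 7 lower (11937 to 13134 against 9294 to 11474, ratio 0.834), while with total-read scaling 7 were higher and 0 lower with a median log2 fold change of 0.37, below the 0.70 of all genes, of which 66.8% were higher. Of 13 hepatocyte markers 12 were lower and 0 higher (2906200 to 3375330 against 826225 to 1260160, ratio 0.330), and they were detected in all 6 livers. In these bulk samples, fewer cells of a type and less RNA per cell cannot be told apart, and what part any cell type had in the values below was not tested.

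Most of the lysosomal transcripts were higher in Vps15LKO livers. All 54 passed the filter, 53 of them by reaching 20 in each of the 6 livers and 1, cathepsin K (Ctsk), through the Vps15LKO livers alone. With limma, 32 were called higher, 11 lower and 11 neither way. Ctsk is 1 of the 32 and had to differ to pass the filter, and with 20 required in every liver 31 were higher and 11 lower. Of all tested genes, 33.5% were called higher and 33.0% lower. The median log2 fold change of the 54 was 0.43, with a range from −0.97 (Lamp2) to 5.49 (Cd63), against −0.02 for all tested genes. WT and Vps15LKO values did not overlap for 47 of the 54, where 73.2% of all tested genes had no overlap. With total-read scaling 47 were called higher and 0 lower, where 66.8% of all genes were higher and 11.1% lower, and their median of 1.16 compared with 0.70 for all genes. With quantile normalization 41 were higher and 3 lower, where 30.4% of all genes were higher and 37.6% lower.

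The classes differed in balance. The 31 hydrolases and cofactors had 21 members higher, 5 lower and a median log2 fold change of 0.61. The 16 V-ATPase genes had 9 higher, 1 lower and a median of 0.34. The 7 membrane proteins had 2 higher, 5 lower and a median of −0.36, while with total-read scaling 4 of them were higher and 0 lower. Within the hydrolases, 7 of 12 proteases (Ctsk among them), 9 of 12 glycan hydrolases and 5 of 7 lipid hydrolases and cofactors were higher, with 2, 2 and 1 lower. Within the pump, 4 of 6 V0 genes, 3 of 8 V1 genes and both accessory genes were higher, with 1, 0 and 0 lower. Of the differences between classes, that of the V-ATPase and the hydrolases was compared within livers, and the others were not tested.

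**Figure D1:**
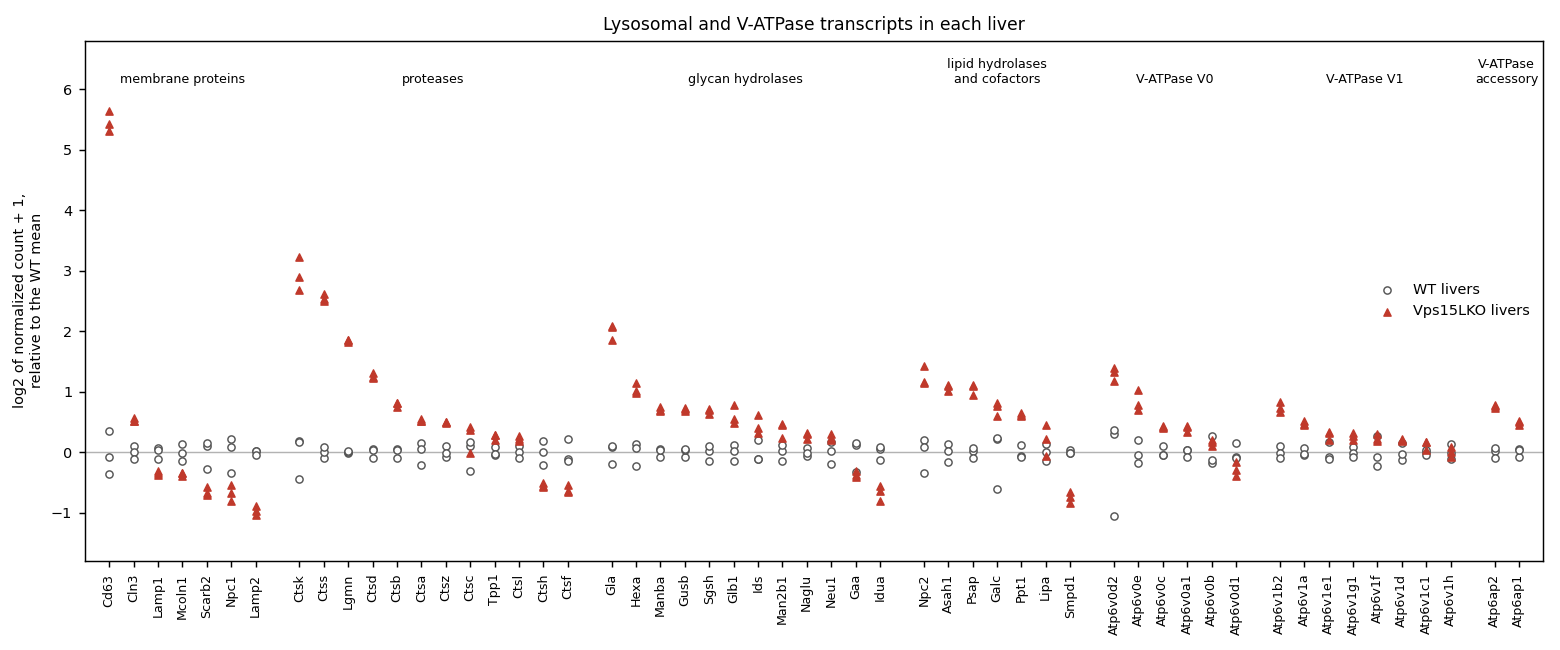
Each of the 54 transcripts is plotted by liver as log2(normalized count + 1) relative to the WT mean, with WT livers as open circles and Vps15LKO livers as red triangles, in 7 classes ordered by log2 fold change. The 3 Vps15LKO livers lie close together for most genes, and Cd63, Ctsk, Ctss and Gla stand farthest above the WT mean. Lamp2 and Smpd1 lie below it on this scale, but Lamp2 lies at 0.12 with quantile normalization.

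A share of the reads needs no size factor. The 54 transcripts took 0.638%, 0.644% and 0.606% of all counted reads in WT and 1.36%, 1.29% and 1.43% in Vps15LKO livers, 2.17 times as much on average. The groups did not overlap. On the same scale the median of the 15430 tested genes was 1.63 times as high in Vps15LKO livers. The same median over the 54 was 2.24, and 52 of them were above 1, as were 80.5% of tested genes. The ratios of summed shares given here weigh abundant genes most and are not the same measure as these medians. The hydrolases had the largest ratio, 2.66, from 0.379% ± 0.013 to 1.01% ± 0.05 (SD, n = 3 livers each). The V-ATPase transcripts went from 0.0633% to 0.133%, a ratio of 2.10, and the membrane proteins from 0.187% to 0.221%, a ratio of 1.18, which is below the median gene. With the 10 genes of most reads in either genotype left out of the total, 13 genes in all, the ratio for the 54 was 2.04.

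Sequence was examined for the promoters, since the CLEAR element is shared by many of these genes. RefSeq promoters on GRCm38.p6, 250 bases before to 50 after the transcription start, were at hand for 45 of the 54 genes, 51 promoters in all. Not in that table were Npc1, Ctsb, Ctsh, Asah1, Atp6v0d2, Atp6v1b2, Atp6v1c1, Atp6v1g1 and Atp6v1h. The core of the CLEAR element, TCACGTGA, stood in 8 of the 51 promoters (15.7%). It stood in 0.974% of all 32851 promoters of the same length and 1.73% of those of tested genes. The motif was chosen because many of these genes were known to carry it, so the larger share is not a finding of this comparison. The letters are a palindrome, so both strands are read at once, and they contain the E-box CACGTG, which TFEB, Bmal1–Clock and other basic helix-loop-helix factors bind. The E-box stood in the promoters of 17 members (33.3% of their promoters), against 7.15% of all promoters and 9.51% of those of tested genes.

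The matches in the 8 members with the CLEAR core are shown, because they are the letters that these genes share, each 5′ to 3′ on the gene's strand with the core in capitals. Where the match lay in an annotated exon or at the start, 30 bases around it are given. For Gla and Ctsa, which each hold 2 copies, the upstream one is shown.
Gla, chrX:134601215-134601244, minus strand: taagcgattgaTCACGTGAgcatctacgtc
Ctsd, chr7:142387908-142387937, minus strand: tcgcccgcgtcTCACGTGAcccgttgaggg
Atp6v0e, chr17:26676387-26676416, plus strand: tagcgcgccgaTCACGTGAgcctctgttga
Ctsa, chr2:164833749-164833778, plus strand: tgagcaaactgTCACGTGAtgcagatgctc
Cln3, chr7:126583340-126583369, minus strand: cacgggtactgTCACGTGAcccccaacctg
Atp6v1a, chr16:44139306-44139461, minus strand: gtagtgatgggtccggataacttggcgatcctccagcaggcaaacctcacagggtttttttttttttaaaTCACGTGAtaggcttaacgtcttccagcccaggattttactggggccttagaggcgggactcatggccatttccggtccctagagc
Atp6v0d1, chr8:105566050-105566079, minus strand: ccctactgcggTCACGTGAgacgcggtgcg
Mcoln1, chr8:3500462-3500491, plus strand: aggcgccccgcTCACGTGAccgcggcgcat

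The members with the CLEAR core went both ways. Of the 8, 6 were called higher (Gla, Ctsd, Atp6v0e, Ctsa, Cln3 and Atp6v1a) and 2 lower (Atp6v0d1 and Mcoln1, both higher with total-read scaling), with a median log2 fold change of 0.53, against 0.39 for the 37 members whose promoters in the table lacked it. Of the 17 with an E-box, 10 were higher, 5 lower and 2 neither, where 33.5% of all tested genes were higher and 33.0% lower. With total-read scaling the lower Lamp1, Mcoln1, Gaa and Atp6v0d1 and the uncalled Ctsl and Atp6v0b were called higher. Ctsf was at 0.12 there and not called. On that scale 66.8% of all genes were higher and 11.1% lower. The Lamp1 promoter had 4 E-boxes, the most of any member, and no CLEAR core, and is shown with the E-boxes in capitals because Lamp1 was called lower on the deposited scale and higher with total-read scaling.
Lamp1, chr8:13158911-13159160, plus strand: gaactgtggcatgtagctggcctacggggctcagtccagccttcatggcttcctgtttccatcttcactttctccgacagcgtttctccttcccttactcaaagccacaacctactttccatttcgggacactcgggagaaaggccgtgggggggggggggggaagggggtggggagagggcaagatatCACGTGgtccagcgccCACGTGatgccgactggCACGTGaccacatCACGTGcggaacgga
A match is a description of letters. No binding was measured here.

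**Figure D2:**
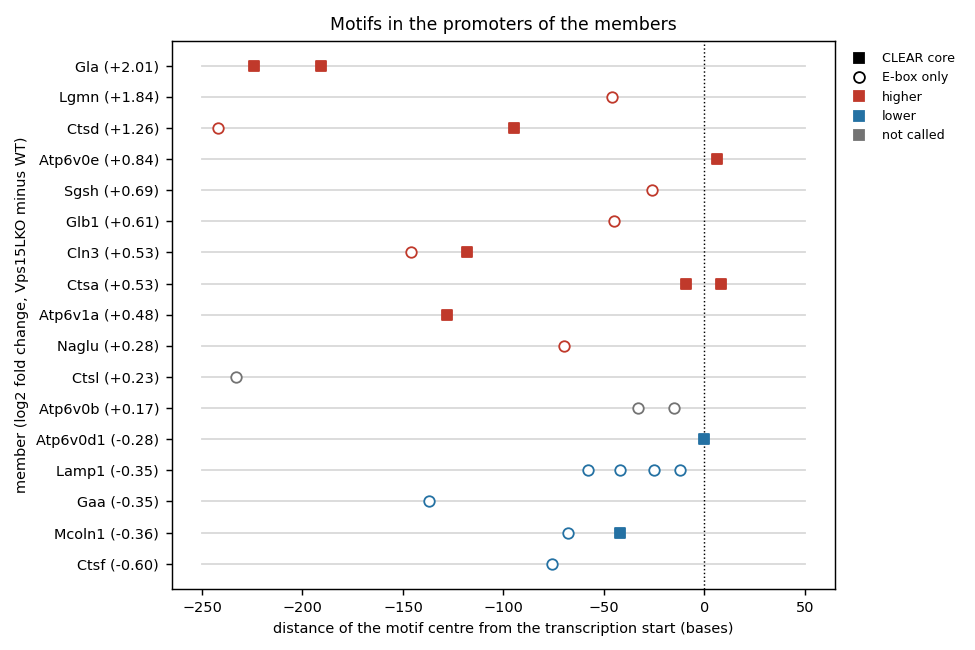
For the 17 members with an E-box, the position of each match is plotted in bases from the transcription start, filled squares marking an E-box within a CLEAR core and open circles an E-box alone, coloured by the call in Vps15LKO livers and ordered by log2 fold change. Genes called higher and lower both carry matches, and the CLEAR cores of Gla lie farthest from the start.

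Among the membrane proteins, 1 gene departed from all others. Cd63, a tetraspanin of late endosomes and lysosomes, had 49.1, 39.97 and 66.1 normalized counts in WT and 2269, 2081 and 2616 in Vps15LKO livers. Every Vps15LKO liver lay far above every WT liver, and the difference was 44.8-fold on the log2(normalized count + 1) scale (log2 fold change 5.49, SE 0.18, adjusted p = 2.8e-07). A processed pseudogene, Cd63-ps, is 98.5% identical to the Cd63 transcript over 812 bases and had 6, 7 and 9 reads in WT and 363, 331 and 469 in Vps15LKO livers. How the counting shared reads between such copies is not stated in the sources used here. The macrophage marker sum of the same livers was 3.60-fold higher, and its part in the rise of Cd63 was not tested. Cln3, a membrane protein whose loss causes a neuronal storage disease, was the other gene that rose, from 379, 356 and 328 to 524, 506 and 506 (log2 fold change 0.53, SE 0.09, adjusted p = 0.0011). It shares 442 exonic bases, 7.65% of its exon length, with Apobr on the other strand, which had 25 to 36 reads in WT and 252 to 289 in Vps15LKO livers.

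The remaining membrane proteins were lower on the deposited scale. Lamp2, which serves in chaperone-mediated autophagy and lysosome fusion, had 16014, 16092 and 15356 normalized counts in WT and 8057, 8516 and 7711 in Vps15LKO livers. The difference was −0.97 on the log2 scale (SE 0.12, adjusted p = 0.00014), the largest fall among the 54 on this scale. Lamp1, the most abundant protein of the lysosomal membrane together with Lamp2, went from 17801, 17399 and 15696 to 13315, 13646 and 12981. The difference of −0.35 (SE 0.13, adjusted p = 0.046) was barely past the threshold, and the call was lost without WT replicate 1 (−0.31), WT replicate 2 (−0.33) or Vps15LKO replicate 1 (−0.35), 2 (−0.37) or 3 (−0.33). Npc1, which exports cholesterol from the lumen, had 4998, 5507 and 3708 in WT and 3259, 2975 and 2696 in Vps15LKO livers (−0.65, SE 0.16, adjusted p = 0.0054). The log2 fold changes were −0.65 for Scarb2, the receptor that carries glucocerebrosidase to the lysosome, and −0.36 for Mcoln1, the calcium channel TRPML1. The hepatocyte marker sum of these livers was 0.330 times that of WT, and its part in the falls was not tested. The falls turned or shrank with total-read scaling. There Lamp1 was at 0.38 and Mcoln1 at 0.37, both called higher, Scarb2 at 0.081, Npc1 at 0.072 and Lamp2 at −0.24. Measured from the all-gene median of that scaling, they were −0.33, −0.33, −0.62, −0.63 and −0.95. With quantile normalization Lamp1 was at 0.82 and Lamp2 at 0.12, and Npc1 (−0.050), Scarb2 (−0.12) and Mcoln1 (−0.18) were no longer called.

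Ratios within a liver do not depend on the size factor of a library. They do change with quantile normalization, which moves genes by rank, and the values under it, an alternative added after the data were seen, are given beside the ratios. Lamp2 over Lamp1, a ratio chosen after the values were seen, was 0.8996, 0.925 and 0.978 in WT and 0.605, 0.624 and 0.594 in Vps15LKO livers, 0.650 times the WT mean and 0.616 times with quantile normalization. Cd63 over Lamp1, chosen likewise, was 56.6-fold higher in Vps15LKO, and 24.9-fold with quantile normalization. In neither case did the groups overlap, and the exact two-sided permutation test gave p = 0.1, the smallest value that 3 livers against 3 allow. Since both pairs were picked with their values known, these p-values are a description and not a test.

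The proteases were led by enzymes that are abundant in macrophages and osteoclasts. Cathepsin S (Ctss), a cysteine protease of antigen-presenting cells, had 455, 488 and 518 normalized counts in WT and 2989, 2749 and 2832 in Vps15LKO livers, a 5.86-fold rise (log2 fold change 2.55, SE 0.09, adjusted p = 3.3e-07). Legumain (Lgmn), the asparaginyl endopeptidase that processes other cathepsins, had 1585, 1611 and 1632 in WT and 5784, 5674 and 5809 in Vps15LKO livers (1.84, SE 0.08, adjusted p = 1.0e-06). Both genes had narrow groups far apart. Ctsk, known for degrading bone collagen, had too low a mean for the rule on named genes and was chosen after its values were seen. It went from 9.28, 15.0 and 14.8 to 88.6, 104 and 130.1 normalized counts (log2 fold change 2.96). No test is given for it, since it passed the filter only through the livers in which it was high. The macrophage marker sum in the same livers was 3.60-fold higher and the stellate cell sum 4.36-fold. Their part in these 3 differences was not tested.

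The bulk lysosomal cathepsins had smaller fold changes. Cathepsin D (Ctsd), the main aspartic protease, had 8111, 8038 and 7322 normalized counts in WT and 18279, 18523 and 19334 in Vps15LKO livers, a 2.39-fold rise (log2 fold change 1.26, SE 0.12, adjusted p = 4.1e-05). Ctsd shares 808 exonic bases, 34.4% of its exon length, with the overlapping gene model Gm49369 on the same strand, which had 3474, 3510 and 2975 reads in WT and 12880, 12117 and 14410 in Vps15LKO livers. Cathepsin B (Ctsb), the most read protease, went from 17989, 17651 and 16204 to 30315, 30404 and 29044 (0.79, SE 0.15, adjusted p = 0.0018). It shares 12.8% of its exon length with Fdft1, an antisense neighbour, and whether the counting used strand is not stated in the sources used here. Ctsa, the carboxypeptidase that also protects neuraminidase and galactosidase, was at 0.53 and Ctsz at 0.50, both called higher. Ctsa shares 10.5% of its exon length with Pltp on the other strand, which had 727 to 1234 reads in WT and 2679 to 3315 in Vps15LKO livers. In Ctsc, the activator of granule serine proteases, the log2 fold change was 0.27 (95% interval −0.09 to 0.63), in Ctsl 0.23 (−0.03 to 0.49) and in the tripeptidyl peptidase Tpp1 0.26 (0.06 to 0.46). None of the latter 3 was called, but Tpp1 missed only the fold of 1.2 (limma adjusted p = 0.030, fold 1.197) and was called without WT replicate 1 (0.30). With total-read scaling all 3 were called higher, as were 66.8% of all tested genes.

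A pair of proteases went the other way. Cathepsin H (Ctsh), an aminopeptidase, had 6016, 5294 and 4586 normalized counts in WT and 3550.2, 3732 and 3599 in Vps15LKO livers (−0.54, SE 0.12, adjusted p = 0.0037). Cathepsin F (Ctsf) had 581, 462 and 450.2 in WT and 343, 319 and 314 in Vps15LKO livers (−0.60, SE 0.12, adjusted p = 0.0020). In both, every Vps15LKO liver was below every WT liver, and with total-read scaling the values were 0.19 for Ctsh and 0.12 for Ctsf, neither called. Against Ctsb in the same liver, the ratio of Ctss was 3.37-fold higher (from 0.0283 ± 0.0034 to 0.0955 ± 0.0044, SD, n = 3 livers each) and that of Ctsd 1.38-fold. For both ratios the groups did not overlap, and the exact two-sided permutation p was 0.1, the smallest possible. With quantile normalization the ratio of Ctss was 1.79-fold and that of Ctsd 1.21-fold higher, still with no overlap. The ratio of Ctsk to Ctsb, given as a description with no test, was 4.74-fold higher, and 1.17-fold with quantile normalization.

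The glycan hydrolases take sugars off glycoproteins, glycolipids and glycosaminoglycans, and 9 of 12 were called higher. Gla, the galactosidase deficient in Fabry disease, had 134, 135 and 111 normalized counts in WT and 538, 462 and 536 in Vps15LKO livers, a 4.03-fold rise (log2 fold change 2.01, SE 0.12, adjusted p = 4.1e-06). Hexa, a subunit of the hexosaminidase that breaks down ganglioside GM2, had 1428, 1369 and 1115 in WT and 2574, 2870.2 and 2618 in Vps15LKO livers (1.05, SE 0.11, adjusted p = 7.0e-05). In both genes the lowest Vps15LKO liver lay well above the highest WT liver. The others that rose were the mannosidases Manba (0.71) and Man2b1 (0.38), the glucuronidase Gusb (0.70), the heparan sulfate enzymes Sgsh (0.69), Ids (0.45) and Naglu (0.28), and the galactosidase Glb1 (0.61). The calls of Man2b1 without Vps15LKO replicate 1 (0.35) and of Naglu without WT replicate 2 (0.25) or Vps15LKO replicate 1 (0.27) were lost. The sialidase Neu1 was at 0.25 (95% interval 0.01 to 0.50) and not called, but was called without WT replicate 1 (0.34). Sgsh shares 21.6% of its exon length with Card14 on the other strand, and Hexa 12.8% with Tmem202.

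Gaa and Idua were the exceptions. On the deposited scale both were lower. Idua, the iduronidase that acts on heparan and dermatan sulfate, had 811, 714 and 829 normalized counts in WT and 505, 529 and 446 in Vps15LKO livers (−0.67, SE 0.10, adjusted p = 0.00053), and 0.056 with total-read scaling. Gaa, the acid glucosidase that digests lysosomal glycogen, had 3363, 3421 and 2466 in WT and 2323, 2371 and 2496 in Vps15LKO livers. The groups overlapped, since WT replicate 3 lay below Vps15LKO replicate 3. The difference in Gaa was −0.35 (SE 0.14, adjusted p = 0.048), and the call was lost without WT replicate 1 (−0.28), WT replicate 2 (−0.27) or Vps15LKO replicate 1 (−0.33), 2 (−0.34) or 3 (−0.38). With total-read scaling Gaa was at 0.38 and called higher, and with quantile normalization at 0.17. Within a liver, Gla over Gaa, a ratio chosen after the values were seen, went from 0.0414 ± 0.0030 to 0.214 ± 0.018 (SD, n = 3 livers each). This was 5.17-fold, with no overlap (exact two-sided permutation p = 0.1, the smallest possible), and 3.27-fold with quantile normalization. The pair was picked with its values known, so this p-value is a description and not a test.

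Of the lipid hydrolases and their cofactors, 5 of 7 rose. Npc2, the soluble cholesterol carrier that hands its cargo to Npc1, had 1569, 1443 and 1076 normalized counts in WT and 3028, 2992 and 3642 in Vps15LKO livers (log2 fold change 1.25, SE 0.15, adjusted p = 0.00013). Asah1, the acid ceramidase, had 683, 635 and 554 in WT and 1324, 1256 and 1349 in Vps15LKO livers (1.07, SE 0.10, adjusted p = 3.1e-05). In both, every Vps15LKO liver lay above every WT liver. Psap, the precursor of the saposins that present sphingolipids to their hydrolases, was at 1.05, the galactosylceramidase Galc at 0.77 and the thioesterase Ppt1 at 0.62, all called higher, although Galc was at 0.51 and not called with quantile normalization.

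Smpd1, the acid sphingomyelinase, was the only lipid hydrolase called lower. It had 1315, 1275 and 1279 normalized counts in WT and 720.1, 817 and 773 in Vps15LKO livers (−0.75, SE 0.09, adjusted p = 9.3e-05). With total-read scaling it was at −0.02. Lipa, the acid lipase for cholesteryl esters and triglycerides, had 5515, 5011 and 4533 in WT and 5826, 6835 and 4807 in Vps15LKO livers, which overlapped (0.20, 95% interval −0.14 to 0.54, adjusted p = 0.25). Lipa was called higher with total-read scaling (0.93) and quantile normalization (0.98), where the medians of all tested genes were 0.70 and −0.10. Of 2 ratios chosen after the values were seen, that of Npc2 to Npc1 was 3.79-fold higher, from 0.289 ± 0.026 to 1.10 ± 0.22, and that of Psap to Smpd1 was 3.48-fold higher, from 8.37 ± 0.47 to 29.1 ± 2.5 (SD, n = 3 livers each). Neither overlapped between genotypes (exact two-sided permutation p = 0.1 for both, the smallest possible). As the pairs were picked with their values known, these p-values are a description and not a test. With quantile normalization they were 3.47-fold and 6.70-fold higher.

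The V-ATPase genes had a lower median log2 fold change than the hydrolases, 0.34 against 0.61, and the ratio between 2 forms of a V0 subunit did not overlap between the genotypes. Atp6v0d1 and Atp6v0d2 encode alternative forms of the subunit that joins the V0 ring to the central stalk, the first found in most tissues and the second typical of osteoclasts, kidney and some macrophages. Atp6v0d2 had 131, 139 and 51.2 normalized counts in WT and 269.6, 283 and 243 in Vps15LKO livers (log2 fold change 1.43, SE 0.34, adjusted p = 0.0053). WT replicate 3 stood apart, and without it the log2 fold change was 0.97 and still called. Atp6v0d1 had 1793, 1534 and 1514 in WT and 1230.2, 1439 and 1313 in Vps15LKO livers (−0.28, SE 0.10, adjusted p = 0.041). This call was lost without WT replicate 1 (−0.20), WT replicate 2 (−0.31), Vps15LKO replicate 1 (−0.23) or Vps15LKO replicate 3 (−0.27), and Atp6v0d1 was at 0.45 and called higher with total-read scaling. Within a liver, Atp6v0d2 over Atp6v0d1 was 0.0732, 0.0904 and 0.0338 in WT and 0.219, 0.197 and 0.185 in Vps15LKO livers. The ratio of the means was 3.04 with no overlap (exact two-sided permutation p = 0.1, the smallest possible) and 2.45 without WT replicate 3. With quantile normalization it was 2.03, with no overlap.

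The other V0 genes were higher or close to WT. Atp6v0e, a small membrane subunit, had 703, 541 and 592 normalized counts in WT and 992, 1048 and 1241 in Vps15LKO livers (0.84, SE 0.13, adjusted p = 0.00045). The proteolipid Atp6v0c was at 0.42 and Atp6v0a1, the form of the proton-channel subunit used in most tissues, at 0.39, both called higher. A processed pseudogene, Atp6v0c-ps2, is 99.8% identical to Atp6v0c over 465 bases and had between 11 and 34 reads per library. Atp6v0b was at 0.17 (95% interval −0.12 to 0.46), not called, and was called without WT replicate 1 (0.31).

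In V1, which holds the ATP-binding sites, the catalytic pair rose. Atp6v1a, the catalytic subunit, had 866, 941 and 872 normalized counts in WT and 1230.2, 1276 and 1222 in Vps15LKO livers (log2 fold change 0.48, SE 0.08, adjusted p = 0.00092). Atp6v1b2, its partner in the catalytic ring, had 999.8, 916 and 869 in WT and 1538, 1651 and 1469.7 in Vps15LKO livers (0.74, SE 0.09, adjusted p = 0.00015). Atp6v1e1 of the peripheral stalk was at 0.29, a call lost without WT replicate 2 (0.25), WT replicate 3 (0.24), Vps15LKO replicate 1 (0.28) or Vps15LKO replicate 3 (0.27).

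The other 5 V1 subunits were not called. With total-read scaling all 8 V1 genes were called higher, as were 66.8% of all tested genes. The log2 fold changes were 0.26 (95% interval 0.06 to 0.46) for Atp6v1g1, 0.25 (−0.05 to 0.54) for Atp6v1f, 0.20 (−0.02 to 0.42) for Atp6v1d, 0.12 (−0.07 to 0.32) for Atp6v1c1 and 0.01 (−0.22 to 0.23) for Atp6v1h, the regulatory subunit. The first 3 were called without WT replicate 1 (0.31 for Atp6v1g1, 0.39 for Atp6v1f and 0.27 for Atp6v1d), and Atp6v1g1 also without Vps15LKO replicate 2 (0.29). Atp6v1g1 missed only the fold of 1.2 (limma adjusted p = 0.028, fold 1.198). The accessory proteins, which guide assembly of the pump, both rose. Atp6ap2, also known as the prorenin receptor, had 533, 549.6 and 491 normalized counts in WT and 869, 891 and 901 in Vps15LKO livers (0.76, SE 0.09, adjusted p = 8.8e-05), and Atp6ap1 had 1395, 1272 and 1372 in WT and 1833, 1921 and 1907 in Vps15LKO livers (0.49, SE 0.08, adjusted p = 0.00090).

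No difference in the proportion of the 2 sectors was detectable with 3 livers each. Summed V1 over summed V0 reads were 1.19, 1.202 and 1.23 in WT and 1.27, 1.21 and 1.24 in Vps15LKO livers, a ratio of 1.03 between the means with overlapping groups (exact two-sided permutation p = 0.2). Summed V-ATPase over summed hydrolase reads went from 0.171, 0.158 and 0.172 to 0.129, 0.131 and 0.135, which is 0.789 times the WT mean with no overlap (exact two-sided permutation p = 0.1, the smallest possible), and 0.513 times with quantile normalization. V1 over V0 was at 0.986 there (exact two-sided permutation p = 0.5).

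**Figure D3:**
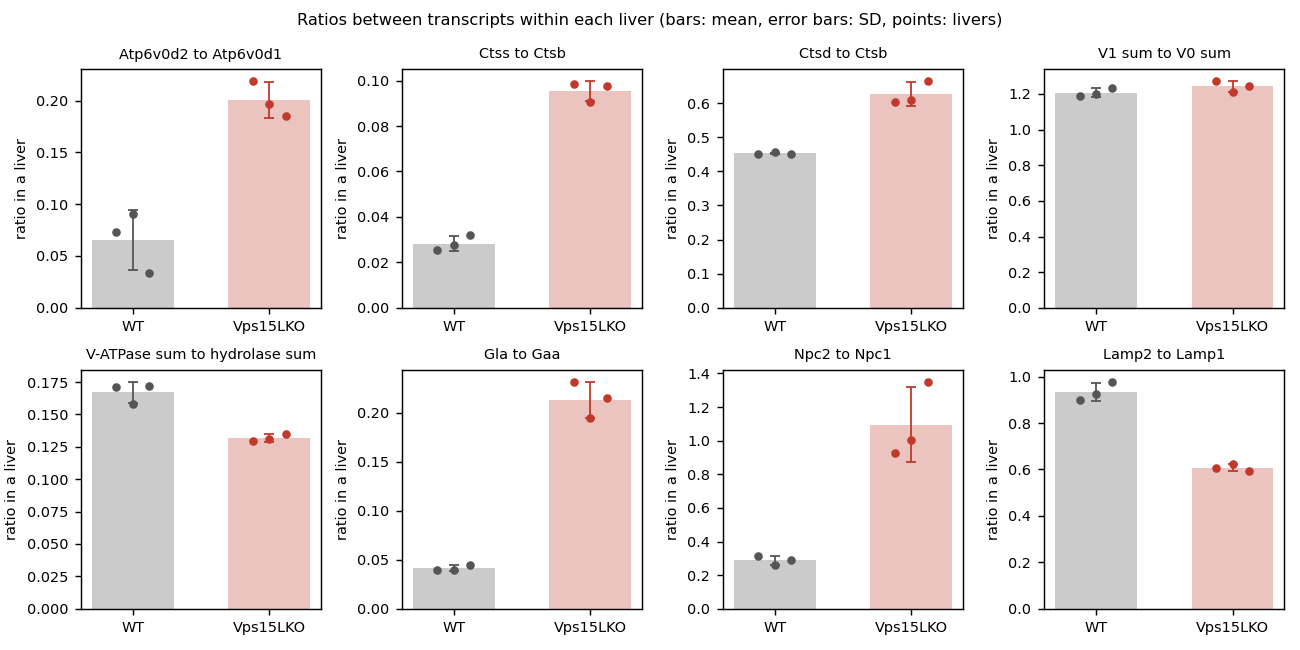
Bars give the mean and error bars the SD of 8 ratios between transcripts within a liver, with 1 point per liver, for WT in grey and Vps15LKO in red, on axes that start at 0. The 2 genotypes overlap only for V1 over V0, and the ratios to Atp6v0d1, Ctsb, Gaa and Npc1 are higher in Vps15LKO while Lamp2 over Lamp1 and V-ATPase over hydrolases are lower.

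**Figure D4:**
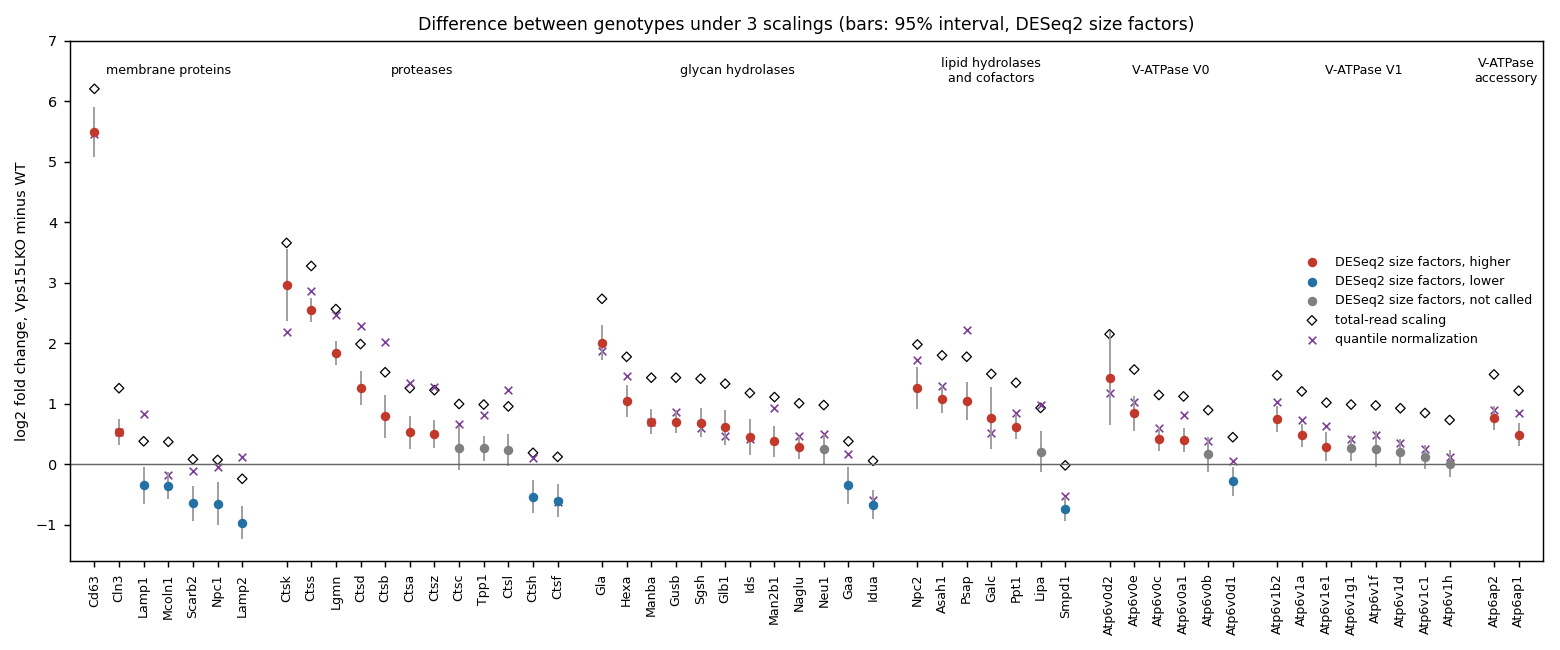
For each of the 54 transcripts, filled circles give the log2 fold change on the deposited scale with its 95% interval, coloured by call, open diamonds that with total-read scaling and crosses that with quantile normalization. Total-read values lie above the others for most genes. Cd63, Ctsk, Ctss, Lgmn, Gla and Npc2 are among the genes above 1 in all 3 scalings, whereas Lamp1, Lamp2, Gaa, Ctsh and Atp6v0d1 change sign in at least 1.

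The members can be set beside each other only per length, as RPKM, the reads per kilobase of exon scaled to the reads of the library. This is a level within a library and carries no size factor. In WT the highest were Lamp1 at 279.8 ± 9.1, Psap at 174 ± 7, Ctsd at 147 ± 4, Ctsz at 130.3 ± 6.1 and Ctsb at 126 ± 3 (SD, n = 3 livers each), of which Ctsz and Ctsb differ by less than their summed SDs. In Vps15LKO the order was Psap at 595 ± 14, Ctsd at 583 ± 55, Lamp1 at 364 ± 16, Ctsb at 362 ± 17 and Ctsz at 305 ± 22, where Psap and Ctsd, and Lamp1 and Ctsb, lie within their SDs of each other. Cd63 moved from rank 52 of 54, at 0.623 ± 0.180, to rank 17, at 46.4 ± 8.6. Ctss moved from rank 23 to 7 and Lgmn from 13 to 6, while Lamp2 moved from 6 to 13, Smpd1 from 22 to 37 and Npc1 from 21 to 36. Ctsk at 0.383 ± 0.107 and Galc at 0.383 ± 0.105 were the lowest in WT, and Galc at 1.06 ± 0.16 was the lowest in Vps15LKO.

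**Figure D5:**
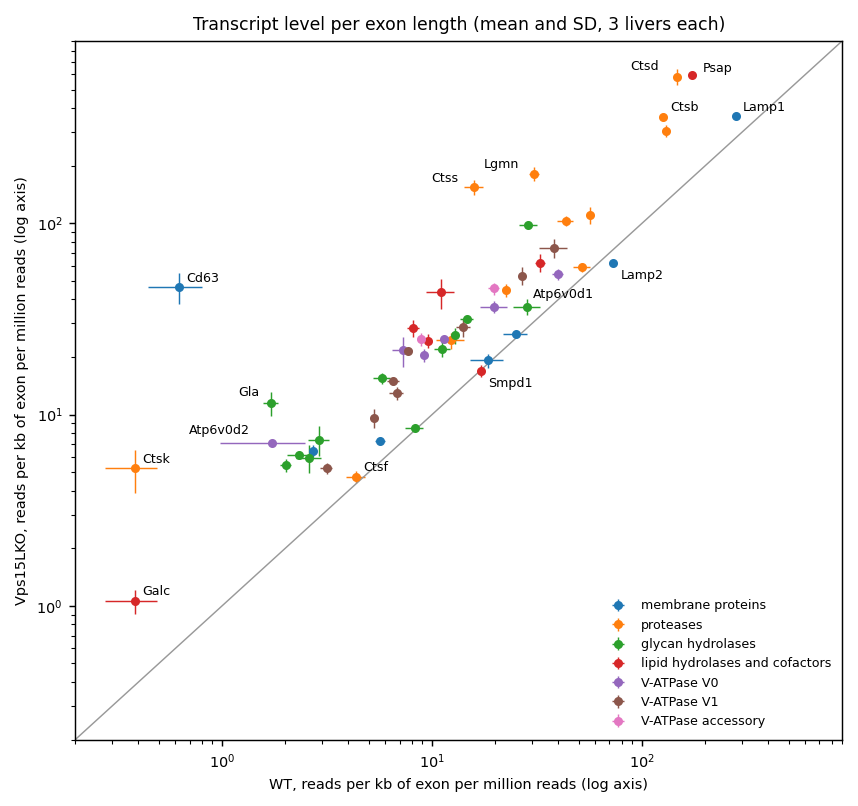
The level of each transcript in RPKM is plotted for WT (horizontal) against Vps15LKO (vertical) on log axes, with points at the mean, bars for the SD of 3 livers and colours for the 7 classes. The grey line marks equal levels, and all transcripts except Lamp2 and Smpd1 lie above it, Cd63 farthest, as do 80.5% of all tested genes on this scale.

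The spread between livers depended on the scale. In normalized counts the median coefficient of variation over the 54 transcripts was 8.69% in WT and 4.05% in Vps15LKO, and it was larger in Vps15LKO for 7 of them. In RPKM it was 7.03% in WT and 7.81% in Vps15LKO, and larger in Vps15LKO for 29. In normalized counts WT replicate 3 held the lowest WT value for 33 of the 54, against 8 and 13 for replicates 1 and 2. Of the 43 calls, 37 held in all 6 fits that each left out 1 liver, and the 6 that did not were those of Lamp1, Gaa, Naglu, Man2b1, Atp6v0d1 and Atp6v1e1.

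Tfeb itself had 225, 225 and 219.7 normalized counts in WT and 226, 241 and 207 in Vps15LKO livers, a log2 fold change of 0.00 (95% interval −0.24 to 0.25) that was 0.73 with total-read scaling, close to that scaling's median. Its relative Tfe3 had 833, 953 and 898 in WT and 1178, 1309.5 and 1186 in Vps15LKO livers (0.45, SE 0.09, adjusted p = 0.0024). Mitf had 75.6, 56.2 and 64.7 in WT and 102, 85.1 and 77.8 in Vps15LKO livers (0.42, adjusted p = 0.065) and was not called. Of the 4 factors of this family, 2 were called higher, and 4 with total-read scaling, where the shares of all genes were 33.5% and 66.8%.

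A further 85 lysosomal and V-ATPase genes were listed, of which 79 passed the filter. Of these, 28 were higher, 20 lower and 31 neither, with a median log2 fold change of 0.07. Ctse and Ctsw, which are among the 28 and among the hydrolases counted below, passed the filter through the Vps15LKO livers alone. Both therefore had to differ. That is 35.4% higher and 25.3% lower, where 33.5% of all tested genes were higher and 33.0% lower. With total-read scaling 65 were higher (82.3%) and 2 lower (2.53%), where 66.8% of all genes were higher and 11.1% lower. The single lists that follow have the same all-gene percentages as background. Among 28 other hydrolases 11 were higher and 8 lower, and 24 and 1 with total-read scaling. Hyal1, a hyaluronidase, had the largest fall, from 782, 812 and 930.1 normalized counts to 204, 194 and 223 (−2.02, SE 0.11, adjusted p = 1.9e-06), and stayed lower at −1.29 with total-read scaling.

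Among 21 tested other membrane proteins 8 were higher and 6 lower, and 16 and 1 with total-read scaling, with the lysosome-associated macrophage glycoprotein Cd68 rising most, from 399, 432 and 418 to 3712, 3636 and 3773 (3.15, SE 0.08, adjusted p = 8.7e-08), and the transporter Abca2 falling most, from 1713, 1929.8 and 1991 to 864, 1086 and 799 (−1.04, SE 0.13, adjusted p = 0.00013). Of the macrophage markers 18 of 20 were higher in the same livers, and their part in the rise of Cd68 was not tested. Among 15 genes of sorting to the lysosome 5 were higher and 1 lower, and 14 and 0 with total-read scaling. Cln6, which helps enzymes leave the endoplasmic reticulum, rose from 200.2, 187 and 185 to 1278, 1191 and 1352 (2.73, SE 0.09, adjusted p = 3.2e-07), and Gnptg, a subunit of the enzyme that makes the mannose 6-phosphate tag, went from 532, 527 and 496 to 314, 322 and 327 (−0.69, SE 0.09, adjusted p = 0.00017), with 0.04 under total-read scaling.

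Among 11 tested other V-ATPase genes 2 were higher and 5 lower, but 7 and 0 with total-read scaling, where their median was 0.58. Tcirg1, the form of the proton-channel subunit typical of osteoclasts and immune cells, rose from 839, 688 and 745 to 1281, 1248 and 1309.9 (0.76, SE 0.10, adjusted p = 0.00017). Vma21, an assembly factor of V0, went from 688, 746 and 733 to 458, 459 and 399 (−0.72, SE 0.10, adjusted p = 0.00021) and was at 0.00 with total-read scaling. Below the filter were Atp6v0a4, Atp6v1b1, Atp6v1c2, Atp6v1e2 and Atp6v1g3, forms known from kidney or testis. Of these, Atp6v1e2, Atp6v1g3 and, in at least 1 genotype, Atp6v1b1 were listed at 0.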

How the data were processed

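RNA-Seq of 6 livers was analysed, 3 WT and 3 Vps15LKO, with genotype and replicate number taken from the sample labels. The authors used SOAPnuke to filter reads, HISAT2 to map to GRCm38, featureCounts (Subread) to count and DESeq2 to normalize. Versions and the strand and multi-overlap settings of the counting are not given in the sources used here. The libraries mark strand with dUTP. The deposited values are a signal, the normalized count, in which a library's reads are divided by its size factor, and 100% of them were whole multiples of 1 read within 0.01 read, so whole reads were recovered.

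log2(normalized count + 1) was compared with limma 3.58.1 (lmFit, eBayes with trend) in R 4.3.3 over the 15430 genes with at least 20 in at least 3 livers, with Benjamini-Hochberg adjustment. Ratios within a liver were compared by exact two-sided permutation tests. Over the 10 ratios tested, that of Ctsk left out, 9 had a Benjamini-Hochberg adjusted p of 0.111 from the exact permutation test, and that of V1 to V0 was 0.2. The ratios chosen after the values were seen are among these 10, and for them the adjusted values are no test. P-values refer only to the variation between these mice, which limma moderates over all tested genes. Symbols, coordinates and exon lengths come from GENCODE M21 and promoters from RefSeq. Near copies were sought with BLAST 2.17.0, at 95% identity over 200 bases or more. Alternatives were other scalings, pseudocounts, filters and thresholds, limma voom, edgeR 4.0.16 and DESeq2 1.42.0 on recovered reads, each liver left out and the replicate number as a block.

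The members and gene lists were chosen with earlier results of these data known. All 54 members are named. Values per liver are given for the 2 largest called rises and falls of each class among members averaging 100 normalized counts or more, for Lamp1, Lamp2, Ctsb, Ctsd, Gaa, Lipa, Atp6v0d1, Atp6v0d2 and Atp6v1a, for Pik3r4, Tfeb, Tfe3 and Mitf, and for the largest called rise and fall in each pathway list with such a mean. Ctsk and 5 of the ratios fall outside this rule. The hepatocyte marker Tf was not matched by symbol. The largest rise in the list of other hydrolases is not reported here.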

Additional observations from a re-analysis of the deposited data

How the results depend on the processing

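Scaling was the choice that mattered most. Of 1133 values of the 54 members under 21 alternatives, 1000 kept direction and side of the threshold, 67 lost the call, 49 gained one and 17 changed sign, and 20 members were the same throughout. The count called higher was 32, and 47 with total-read scaling, 40 with upper-quartile scaling and 41 with quantile normalization. With a fold of at least 1.5 it was 21. The count called lower was 11, and 0 with total-read scaling, 7 with upper-quartile scaling, 3 with quantile normalization and 6 with a fold of at least 1.5. For the other lysosomal genes, total-read scaling gave 65 higher and 2 lower in place of 28 and 20. Total-read scaling changed the sign of Atp6v0d1 (0.45), Ctsf (0.12), Ctsh (0.19), Gaa (0.38), Idua (0.056), Lamp1 (0.38), Mcoln1 (0.37), Npc1 (0.072) and Scarb2 (0.081), and quantile normalization that of Atp6v0d1 (0.050), Ctsh (0.10), Gaa (0.17), Lamp1 (0.82) and Lamp2 (0.12). Atp6v1h, at 0.01, was −0.037 without Vps15LKO replicate 2, −0.051 without WT replicate 2 and −0.0044 without WT replicate 3, and 0.070 at most with a liver left out. With each liver left out, 29 to 38 members were higher and 8 to 11 lower, and the read-share ratio lay between 2.11 and 2.22. The ratio of V1 to V0 reads, 1.03, was 0.986 with quantile normalization, an alternative added after the data were seen. The counts of promoters with a CLEAR core and an E-box before the start alone were 6 and 15.

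Replicate numbers are not tied to litters, and same-numbered livers did not deviate together (correlations over genes of −0.010, −0.011 and 0.049), so they share only a number. With the replicate block, 33 members were higher and 8 lower: Ctsc (0.27, adjusted p = 0.035) gained a call, while Lamp1 (adjusted p = 0.061), Gaa (0.054) and Atp6v0d1 (0.066) lost theirs. The depth of 16137093 reads or more leaves Ctsk and Cd63 in WT with few reads, which limits the precision of their folds.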
